A study of Mus musculus with 26 samples.

Results

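The genes described here are 9 genes of alternative macrophage activation and the type 2 response: the receptor chains Il4ra and Il13ra1, the transcription factor Stat6, the chitinase-like proteins Chi3l3 (Ym1), Chi3l4 (Ym2) and Chi3l1, and the secreted or metabolic effectors Retnla, Arg1 and Ear2. They were taken by symbol from the 23420 symbols of a table of normalized counts, and all 9 were found. All 9 were among the 13311 genes tested, which had a normalized count of at least 10 in at least 2 libraries. RNA was sequenced from antigen-presenting cells of mice labelled mTORΔAPC (called KO) and of wild-type littermates (WT). The labels name neither the Cre driver nor the floxed allele, and give neither age nor strain. Untreated mice gave spleen CD8a dendritic cells (DCs) and spleen CD11b DCs, with 2 libraries per genotype, and lung CD11b DCs and alveolar macrophages, with 3 libraries per genotype. Inflammatory DCs, with 3 libraries per genotype, came from lungs of mice given 25 µL of house dust mite extract at 1 mg/mL intranasally 3 times a week, with collection on day 17 by the sample label or day 18 by the treatment protocol. The labels do not say whether libraries came from separate animals, so p-values measure only the spread between these 26 samples.

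Interleukin 4 and interleukin 13 are the cytokines that define a type 2 response, as seen in allergic airways. Interleukin 4 signals through Il4ra paired with the common gamma chain or with Il13ra1, and interleukin 13 through Il4ra paired with Il13ra1. Signalling from these pairs leads to phosphorylation of Stat6, which then enters the nucleus and binds DNA. In mouse macrophages this induces arginase 1, the resistin-like protein Retnla and chitinase-like proteins such as Chi3l3, the usual readouts of alternative activation. Alveolar macrophages hold Chi3l3 also at steady state.

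Facts on the whole set of libraries bear on every result. The libraries held 7.37 to 14.1 M counted reads. Mtor was lower in every KO library than in every WT library of its cell type, but to unequal extents: the KO mean was 13.4% of the WT mean in spleen CD8a DCs, 19.4% in spleen CD11b DCs, 24.7% in alveolar macrophages, 59.9% in inflammatory DCs and 63.3% in lung CD11b DCs. KO changes in different cell types are thus compared at different remaining Mtor levels. Y-linked reads were absent (a summed normalized count of at most 2.28) from every steady-state WT library and present (at least 659.5) in every other library except KO lung CD11b DC replicates 2 and 3, which held at most 1.35. Sex and genotype therefore cannot be told apart in spleen cells and alveolar macrophages, and the steady-state WT and inflammatory libraries differ in sex, cell type, treatment and day at once. Xist was also high in some libraries with Y-linked reads, which thus appear to mix cells of both sexes. These were replicate 1 of KO spleen CD8a DCs (3619.7), KO spleen CD11b DCs (3092.4), KO lung CD11b DCs (1450.4) and WT inflammatory DCs (717.5). All 3 KO alveolar macrophage libraries (571.9 to 2293.1) held it too. A fit with a term for Y-linked reads could estimate that term only from the KO lung CD11b DCs, where 1 library of 3 held them. That term records presence only, not the share of male cells. WT lung CD11b DC replicate 3 and KO replicates 2 and 3 had fewer genes above 0 than all other libraries. These KO replicates, with 13056 and 12992 genes against 13876 in KO replicate 1, are also the KO lung libraries without Y-linked reads. The term for Y-linked reads therefore cannot tell sex from detection, and a call lost with it is not shown to be an effect of sex.

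Sequence upstream of the genes is shown because Stat6 is the factor through which some of them, such as Arg1, Retnla and Chi3l3, are known to be induced. RefSeq (GRCm38.p6, the build called mm10) gave a window from 250 bases before to 50 after the start for 8 of the 9 genes; Arg1 had no entry. A palindromic STAT motif was searched in 2 spacings, TTCNNNNGAA and TTCNNNGAA, each of which reads the same on both strands. TTCNNNNGAA was present in 6.95% of all 32851 windows and TTCNNNGAA in 8.30%. Stretches of 150 bases are given for the 3 genes with a match, with the match in capitals, at chr16:48842414-48842563 on the plus strand for Retnla, chr3:106167637-106167786 on the minus strand for Chi3l3 and chr3:106219580-106219729 on the minus strand for Chi3l4.
Retnla: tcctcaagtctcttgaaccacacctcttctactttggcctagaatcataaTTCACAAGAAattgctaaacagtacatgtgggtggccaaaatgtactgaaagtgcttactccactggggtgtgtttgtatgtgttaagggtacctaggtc
Chi3l3: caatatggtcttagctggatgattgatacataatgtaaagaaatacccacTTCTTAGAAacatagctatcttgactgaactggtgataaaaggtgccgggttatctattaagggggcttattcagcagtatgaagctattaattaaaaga
Chi3l4: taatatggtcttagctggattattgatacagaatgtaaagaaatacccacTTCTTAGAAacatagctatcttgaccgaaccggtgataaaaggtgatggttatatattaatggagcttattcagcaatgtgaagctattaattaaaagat
The Retnla match was of the longer spacing and began 145 bases upstream of the start. The matches of Chi3l3 and Chi3l4 were of the shorter spacing, had the same letters and began 172 and 200 bases upstream. The Chi3l3 and Chi3l4 stretches were identical at 137 of 149 aligned bases (91.9%). Neither spacing was found in the windows of Chi3l1, Ear2, Il4ra, Il13ra1 and Stat6. Whether Stat6 or another STAT factor binds any of these matches was not tested.

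Chi3l3 and Chi3l4 are near copies also in their coding sequence, and so are Ear2 and its neighbour Ear1, which matters for how their reads can be told apart. In GENCODE M21 the coding sequences of Chi3l3 and Chi3l4 were identical at 1139 of 1194 aligned bases (95.4%), and 20.7% of the 50-base words of Chi3l3 were also found in a Chi3l4 transcript. Their longest shared run was 136 bases (bases 987 to 1122 of the Chi3l3 coding sequence) and is given first. Ear2 and Ear1 were identical at 445 of 465 aligned bases (95.7%), with 16.7% of 50-base words of Ear2 found in Ear1 and a longest shared run of 96 bases (bases 171 to 266 of Ear2), given second.
Chi3l3 and Chi3l4: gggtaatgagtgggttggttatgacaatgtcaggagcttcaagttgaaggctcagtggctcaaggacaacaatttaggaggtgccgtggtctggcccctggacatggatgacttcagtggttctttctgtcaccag
Ear2 and Ear1: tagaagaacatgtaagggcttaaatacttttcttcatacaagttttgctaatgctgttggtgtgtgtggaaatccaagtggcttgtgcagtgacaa
How reads from such runs were assigned is not given in the sources used here, so the values of Chi3l4 and Ear2 are uncertain to that extent. Chi3l1 shared no 50-base word with Chi3l3 (60.1% identity) or Chi3l4 (62.0%). Retnla shared none with Retnlb or Retnlg, and Arg1 none with Arg2.

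The receptor and signalling genes were present in all 10 groups with group means from 771.0 to 3861.2 for Il4ra, 711.3 to 4012.3 for Il13ra1 and 2224.2 to 4419.4 for Stat6, whereas the effectors ranged from no reads in spleen DCs to the most counted transcript of a library in lung cells. Normalized counts, the deposited unit, are reads divided by a library size factor.

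**Figure D1:**
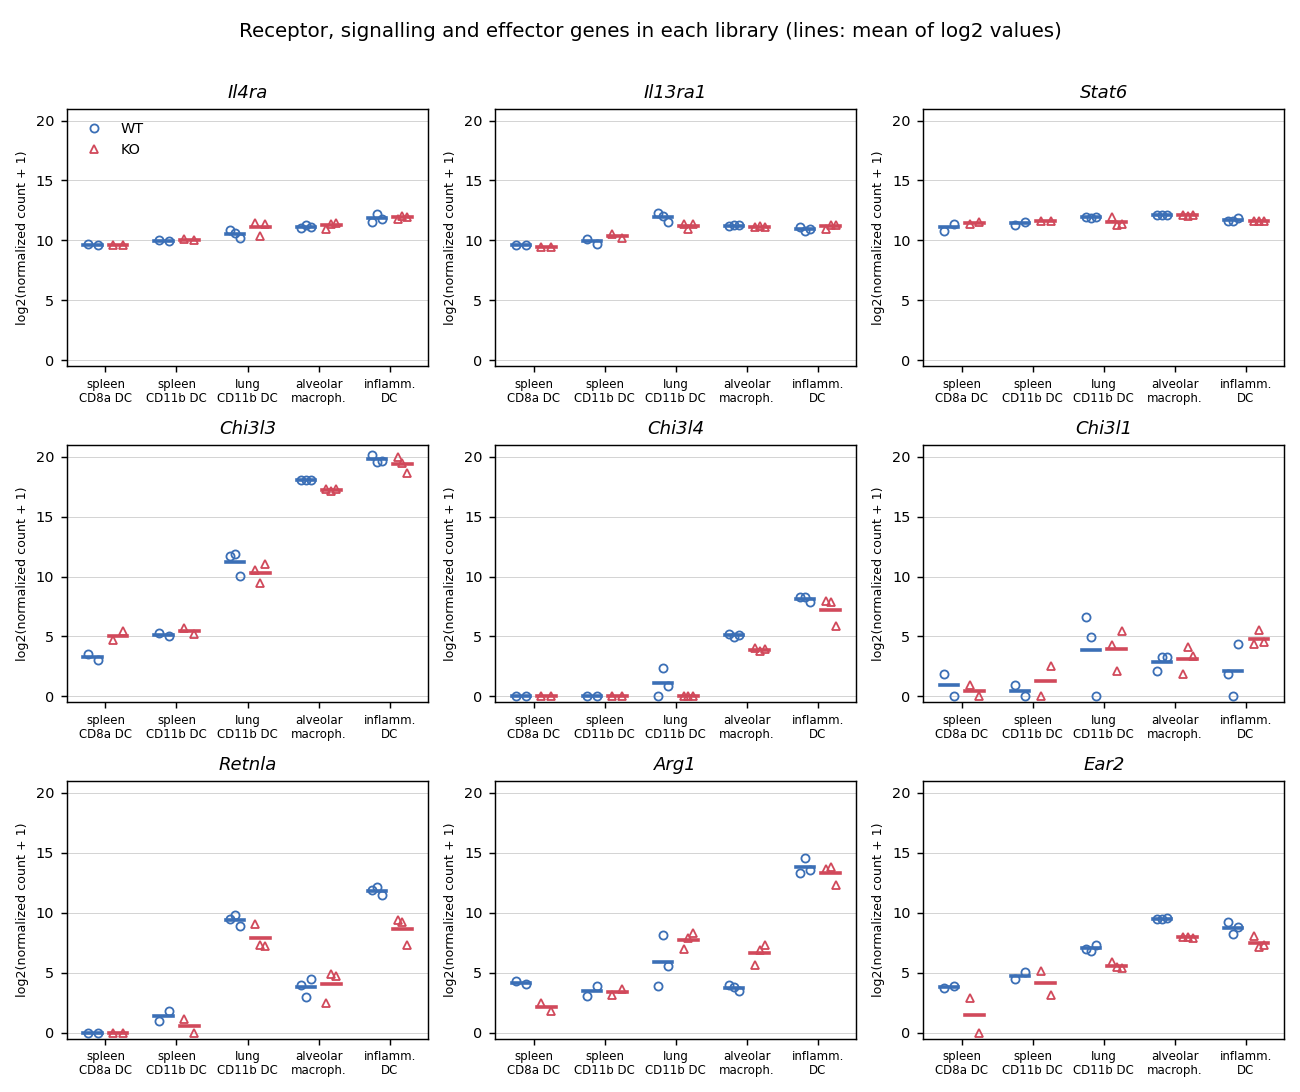
Log2 of the normalized count plus 1 (vertical axis) for every library, arranged by cell type (horizontal axis) and genotype, for each of the 9 genes; circles are WT libraries, triangles KO libraries and lines means of the log2 values. Il4ra, Il13ra1 and Stat6 are present in every library, Chi3l3 reaches its top in inflammatory DCs and is next highest in alveolar macrophages, and Retnla is high in lung CD11b and inflammatory DCs and low in alveolar macrophages.

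Il4ra, the signalling chain shared by both receptors (chromosome 7, 125552120 to 125579474, plus strand, GRCm38; it overlaps the antisense gene Gm44876), was highest in the inflammatory DCs. WT inflammatory DC libraries held 2937.4, 4597.3 and 3551.2 normalized counts and KO libraries 3480.8, 4245.3 and 3857.6. The genotypes overlapped, and all these libraries lay above every library of the other cell types. Next came alveolar macrophages, with 2057.0, 2425.1 and 2177.1 in WT and 1969.7, 2607.6 and 2823.7 in KO, and KO lung CD11b DCs, with 2856.3, 1306.0 and 2710.3, whose ranges overlapped. WT lung CD11b DCs held 1875.3, 1599.8 and 1160.9. WT spleen CD11b DCs held 1021.1 and 979.3 and their KO counterparts 1116.3 and 1034.6. Spleen CD8a DCs were lowest, with 820.5 and 770.4 for WT libraries and 773.5 and 768.6 for KO libraries. The step from WT spleen CD11b to WT lung CD11b DCs was not called by limma (log2 difference 0.60 ± 0.24, adjusted p = 0.0591) and was called in 7 of 16 alternatives, among them edgeR (adjusted p = 0.0443), DESeq2 (adjusted p = 0.0328) and without WT lung CD11b DC replicate 3 (0.79, adjusted p = 0.0178).

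Il13ra1, the chain that binds interleukin 13 (chromosome X, 36112110 to 36171259, plus strand), had another order, with its top in WT lung CD11b DCs. These held 4905.4, 4123.7 and 3007.7, and no library of any other group reached their lowest value. All other lung libraries lay between 1810.8 and 2676.1, with 2676.1, 1931.5 and 2624.6 in KO lung CD11b DCs, 2373.3, 2448.3 and 2436.2 in WT and 2160.0, 2319.0 and 2269.2 in KO alveolar macrophages, and 2162.2, 1810.8 and 2006.2 in WT and 2020.5, 2561.7 and 2541.2 in KO inflammatory DCs. Spleen CD11b DCs held 1118.9 and 821.9 in WT and 1481.5 and 1180.3 in KO. Spleen CD8a DCs had the lowest values, 762.3 and 785.6 in WT and 709.2 and 713.4 in KO.

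Stat6 (chromosome 10, 127642986 to 127660957, plus strand; it overlaps Nab2 on the other strand) varied least among the 9 genes. Its group means ran from 2224.2 ± 624.8 (SD, 2 libraries) in WT spleen CD8a DCs to 4419.4 ± 26.8 (SD, 3 libraries) in WT alveolar macrophages. WT lung CD11b DCs held 3933.6, 3822.3 and 3850.2, whereas KO lung CD11b DCs were split between 4033.5 in replicate 1 and 2447.0 and 2701.5 in the others. Inflammatory DCs held 3201.5, 3144.2 and 3675.2 in WT and 3067.2, 3063.2 and 3223.9 in KO, which overlapped.

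Chi3l3, a secreted lectin that forms crystals in allergic mouse airways (chromosome 3, 106147554 to 106167564, minus strand), covered the widest range. It was at 1135997, 784487 and 814207 normalized counts in WT inflammatory DCs and 1029687, 723286 and 414293 in KO. Alveolar macrophages held 274840.5, 277962 and 267928 in WT and 161901, 143757 and 160530 in KO, which did not overlap. Lung CD11b DCs were far lower, with 3324.8, 3817.1 and 1082.7 in WT and 1454.3, 706.8 and 2058.7 in KO. Spleen CD11b DCs (31.3 to 50.4) and spleen CD8a DCs (7.1 to 42.0) were at the bottom.

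As a share of all counted reads, Chi3l3 took 8.05% ± 1.69 (SD, n = 3) in WT and 6.27% ± 2.53 in KO inflammatory DCs. In alveolar macrophages the share was 2.74% ± 0.047 in WT and 1.56% ± 0.099 in KO, and in WT lung CD11b DCs it was 0.0282% ± 0.0146. It was the most counted gene in all 6 inflammatory DC libraries and all 3 WT alveolar macrophage libraries. In every spleen and lung CD11b DC library that gene was Cd74, the invariant chain of MHC class II. Per kilobase of exon, which allows genes to be compared, the mean in WT inflammatory DCs was 558556 for Chi3l3, 6923.6 for Arg1, 6313.7 for Retnla, 626.5 for Ear2 and 102.5 for Chi3l4.

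**Figure D2:**
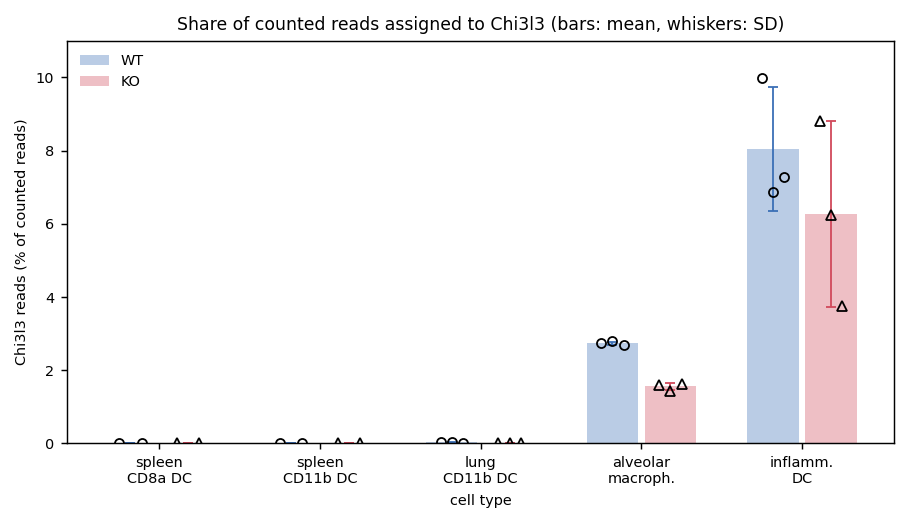
Reads assigned to Chi3l3 as a percentage of all counted reads (vertical axis, linear from 0) by cell type (horizontal axis) and genotype; bars are means, whiskers SDs and points libraries. The share was 8.05% in WT inflammatory DCs, 2.74% in WT alveolar macrophages and 0.0282% in WT lung CD11b DCs.

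Chi3l4, the near copy of Chi3l3 (chromosome 3, 106201490 to 106219507, minus strand), had the same 2 cell types at the top at a far lower level. WT inflammatory DCs held 309.4, 318.7 and 238.1 and KO 246.1, 233.5 and 59.1. Alveolar macrophages held 36.5, 29.8 and 34.7 in WT and 15.0, 12.5 and 14.6 in KO. Lung CD11b DCs held 0, 4.2 and 0.8 in WT and 0 in all 3 KO libraries, and all 8 spleen libraries were at 0. Per 100000 Chi3l3 reads there were 10.7 to 13.3 Chi3l4 reads in WT and 8.73 to 9.29 in KO alveolar macrophages, and more, 27.2 to 40.6 in WT and 14.3 to 32.3 in KO, in inflammatory DCs. These ratios did not overlap between the 2 cell types.

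Chi3l1, a chitinase-like protein linked to airway inflammation (chromosome 1, 134182176 to 134190181, plus strand), was low throughout. Its largest value was 99.7 in WT lung CD11b DC replicate 1, beside 29.6 and 0 in the other libraries of that group. KO inflammatory DCs held 20.1, 45.1 and 22.6, and WT 2.7, 0 and 20.0. Each group overlapped the next in the order of means, and limma called Chi3l1 in 0 of the 12 comparisons, whereas edgeR and DESeq2 called it higher in lung than in spleen CD11b DCs.

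Retnla, a secreted resistin-like protein also called Fizz1 or Relmα (chromosome 16, 48842551 to 48844461, plus strand), was higher in the lung libraries labelled as DCs than in alveolar macrophages of untreated mice. WT inflammatory DCs held 3862.0, 4664.0 and 2819.7, above every other library. WT lung CD11b DCs held 716.1, 914.6 and 472.4, KO inflammatory DCs 689.5, 599.6 and 157.2 and KO lung CD11b DCs 525.1, 157.6 and 150.4, and these 3 groups overlapped in turn. Alveolar macrophages held only 14.8, 6.6 and 20.6 in WT and 4.4, 28.7 and 25.6 in KO. Spleen libraries held at most 2.5, and all 4 spleen CD8a DC libraries held 0.

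Arg1, which splits arginine into ornithine and urea (chromosome 10, 24915221 to 24927484, minus strand), was concentrated in the inflammatory DCs. These held 10133.3, 24026.5 and 12117.4 in WT and 12740.7, 14809.3 and 5174.1 in KO, with overlap between the genotypes. The next groups were KO lung CD11b DCs with 126.9, 237.2 and 317.7, WT lung CD11b DCs with 14.1, 283.4 and 45.1, and KO alveolar macrophages with 48.7, 121.0 and 156.2, which overlapped. WT alveolar macrophages held 14.8, 13.2 and 9.8 and spleen DCs 2.4 to 18.8.

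Ear2, an eosinophil-associated ribonuclease that mouse macrophages also express (chromosome 14, 44102654 to 44103534, plus strand; it overlaps the lincRNA Gm49101), was highest in WT alveolar macrophages, at 709.3, 702.0 and 767.6. WT inflammatory DCs followed with 597.4, 302.6 and 451.3. KO alveolar macrophages (256.6, 243.7 and 235.7) and KO inflammatory DCs (258.5, 138.0 and 158.4) overlapped below them. Lung CD11b DCs held 126.8, 108.9 and 160.4 in WT and 57.2, 43.5 and 41.1 in KO, and spleen DCs 0 to 33.2. Ear2 stood lower in KO than in WT in all 3 lung cell types, with no overlap in any of them. Per 1000 reads of its near copy Ear1, there were 106 to 119 Ear2 reads in WT and 165 to 197 in KO alveolar macrophages. In inflammatory DCs there were 2012 to 3757 in WT and 1000 to 8667 in KO. How far Ear1 reads entered the Ear2 values was not tested.

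WT inflammatory DCs were first compared with WT lung CD11b DCs, the steady-state lung DCs. Chi3l3 was higher by a factor of 332.5, Arg1 and Chi3l4 by 135.1 and 172.0 from low and uneven steady-state levels, Retnla by 5.39, Ear2 by 3.41 and Il4ra by 2.39 in the ratio of mean normalized counts, and Il13ra1 was lower by a factor of 2.01. In limma, 6 of the 9 genes were called higher, against 23.7% of all tested genes, 1 lower, against 23.8%, and 2 were not called. The median log2 difference of the 9 was 1.73, beside -0.01 for all tested genes. Differences are of log2(normalized count + 1), which understates changes of low genes, with the moderated standard error, and p-values are adjusted by Benjamini-Hochberg over all tested genes.

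Chi3l3 was higher by 8.55 ± 0.38 (adjusted p = 1.37e-13). Arg1 was higher by 7.94 ± 0.68 (adjusted p = 1.78e-09), and its ratio of means was 520.9 without WT lung CD11b DC replicate 2, which held 283.4 (log2 differences 6.97 to 9.09 over all left-out libraries). Chi3l4 was higher by 7.09 ± 0.55 (adjusted p = 4.46e-10). Its ratio rested on 0, 4 and 1 reads in WT lung CD11b DCs, was 716.3 without replicate 2 and 114.7 without replicate 1. These calls, and the lower Il13ra1 (-0.98 ± 0.15, adjusted p = 1.13e-05), held in every alternative run. Retnla was higher by 2.45 ± 0.63 (adjusted p = 0.00254), Ear2 by 1.73 ± 0.50 (adjusted p = 0.00702) and Il4ra by 1.26 ± 0.22 (adjusted p = 4.5e-05). With the term for Y-linked reads these 3 were no longer called (Retnla 0.69, adjusted p = 0.66; Ear2 1.30, adjusted p = 0.296; Il4ra 0.66, adjusted p = 0.179). The Stat6 ranges of these groups did not overlap, but Stat6 was not called (-0.22 ± 0.14, adjusted p = 0.221), except with the term for Y-linked reads (-0.86, adjusted p = 0.00163) or for fewer detected genes (adjusted p = 0.0495). Chi3l1 was not called (-1.77 ± 1.26, adjusted p = 0.263) but was called without WT lung CD11b DC replicate 3, which held none (-3.71, adjusted p = 0.00872).

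**Figure D3:**
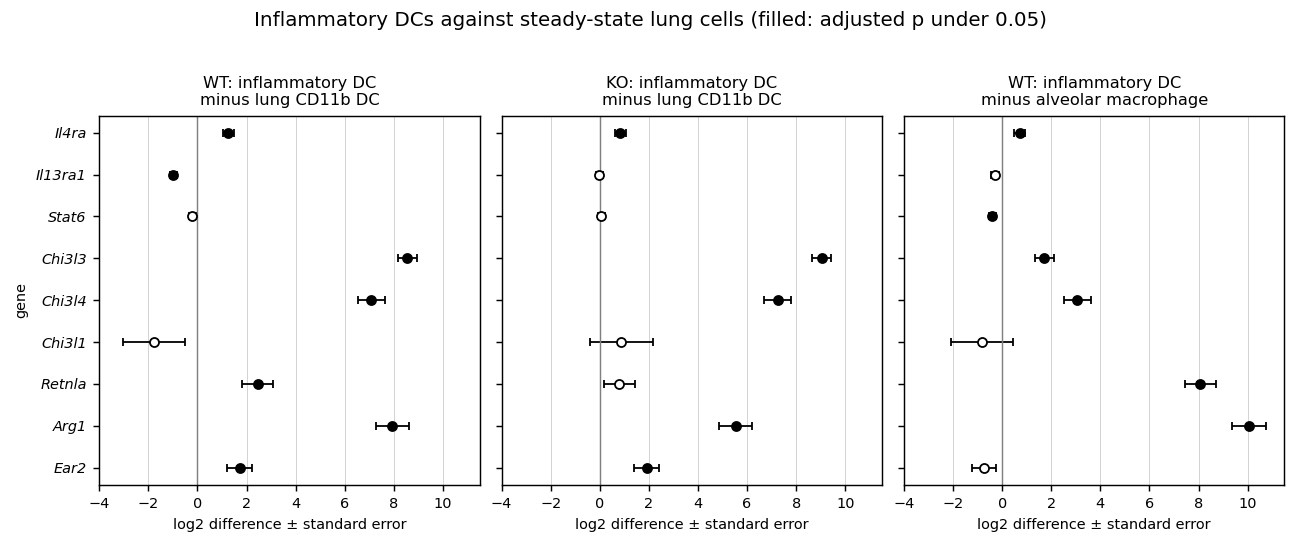
Log2 difference (horizontal axis) ± moderated standard error for each of the 9 genes (vertical axis) between inflammatory DCs and steady-state lung cells; filled points are genes with an adjusted p under 0.05. Chi3l3, Chi3l4 and Arg1 lie far to the right against lung CD11b DCs in both genotypes, and Retnla does so only in the comparison with alveolar macrophages (8.07).

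In KO cells the same comparison called 5 of the 9 genes higher, against 19.4% of all tested genes, and none lower, against 17.7%. None was lower at an unadjusted p under 0.05, by edgeR or by DESeq2 either. The median log2 difference was 0.88, beside 0.03 for all tested genes. Chi3l3 was higher by 9.04 ± 0.38 (adjusted p = 8.33e-14) and Arg1 by 5.54 ± 0.68 (adjusted p = 9.08e-07). Chi3l4, with no read in KO lung CD11b DCs, was at least 72.9-fold higher against a floor of 3 reads per library (adjusted p = 8.12e-10). Ear2 was higher by 1.91 ± 0.50 (adjusted p = 0.00454) and Il4ra by 0.83 ± 0.22 (adjusted p = 0.00412), and both calls were lost with the term for Y-linked reads (adjusted p = 0.108 and 0.309). Il4ra was lost also when the poorly detected lung libraries had their own term (0.44, adjusted p = 0.154), and Ear2 when samples were weighted (adjusted p = 0.0754). Retnla, called in WT, was at 482.1 ± 285.0 against 277.7 ± 214.3 in KO, a difference of 0.79 ± 0.63 (adjusted p = 0.346). Il13ra1 (-0.01 ± 0.15, 95% interval -0.33 to 0.30) and Stat6 (0.06 ± 0.14) were not called.

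Against WT alveolar macrophages, WT inflammatory DCs held 5 of the 9 genes higher (background 20.1%), 1 lower (14.7%) and 3 not called. Arg1 was higher by 10.06 ± 0.68 (adjusted p = 2.48e-11) and Retnla by 8.07 ± 0.63 (adjusted p = 3.27e-10), ratios of means of 1223 and 269.7. Chi3l4 was higher by 3.06 ± 0.55 (adjusted p = 0.000102). Chi3l3 was higher by 1.72 ± 0.38 (adjusted p = 0.000995) and Il4ra by 0.71 ± 0.22 (adjusted p = 0.0125), both lost with the term for Y-linked reads (1.45, adjusted p = 0.141, and 0.11, adjusted p = 0.864), Il4ra also without WT inflammatory DC replicate 2 (0.54, adjusted p = 0.0904). Stat6 was lower by a log2 difference of -0.41 ± 0.14 (adjusted p = 0.0274), which leaving out any 1 of 5 libraries ended (adjusted p 0.0604 to 0.0948 without WT alveolar macrophage replicate 1, 2 or 3 or WT inflammatory DC replicate 1 or 2). Ear2 (-0.74 ± 0.50, adjusted p = 0.284) and Il13ra1 (-0.28 ± 0.15, adjusted p = 0.162) did not overlap between the groups and were not called, though both were in a fit of these 2 groups alone (adjusted p = 0.0126 for each).

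The 2 steady-state lung cell types split the effectors between them. Alveolar macrophages held 4 of the 9 genes higher than lung CD11b DCs (background 24.0%), namely Chi3l3 (6.83 ± 0.38, adjusted p = 4.47e-13), Chi3l4 (4.03 ± 0.55, adjusted p = 1.45e-06), Ear2 (2.47 ± 0.50, adjusted p = 0.000252) and Il4ra (0.55 ± 0.22, adjusted p = 0.0394). They held 3 lower (background 27.2%), namely Retnla (-5.62 ± 0.63, adjusted p = 7.03e-08), Il13ra1 (-0.70 ± 0.15, adjusted p = 0.000457) and Arg1 (-2.12 ± 0.68, adjusted p = 0.0115). The Arg1 call rested on WT lung CD11b DC replicate 2, without which the difference was -0.97 (adjusted p = 0.151), and was lost when these 2 groups were fitted alone (adjusted p = 0.0815). The Il4ra call was lost in 7 of 17 alternatives, among them leaving out WT lung CD11b DC replicate 2 or 3 or any alveolar macrophage library (adjusted p 0.0527 to 0.216).

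Lung against spleen CD11b DCs, both WT at steady state, gave 6 of the 9 genes higher in lung (background 21.1%) and none lower (background 13.8%; none at an unadjusted p under 0.05, by edgeR or by DESeq2). Retnla was higher by 8.03 ± 0.70 (adjusted p = 3.7e-09), Chi3l3 by 6.07 ± 0.43 (adjusted p = 1.1e-10), Ear2 by 2.29 ± 0.56 (adjusted p = 0.00263) and Il13ra1 by 2.04 ± 0.17 (adjusted p = 1.71e-09). Stat6 was higher by 0.50 ± 0.16 (adjusted p = 0.0164), lost without spleen CD11b DC WT replicate 1 (0.35, adjusted p = 0.211). Arg1 was higher by 2.42 ± 0.76 (adjusted p = 0.0152), lost without that library (2.00, adjusted p = 0.138), without lung CD11b DC WT replicate 2 (1.27, adjusted p = 0.111) and in a fit of these 2 groups alone (adjusted p = 0.106).

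The cell type named on the inflammatory DC label was checked against its markers. Of 6 conventional DC genes, all 6 were lower in WT inflammatory than in WT lung CD11b DCs, among them Flt3 (129.3 against 2654 normalized counts) and Zbtb46 (97.0 against 1033), the receptor and the transcription factor that mark conventional DCs. Of 13 monocyte and macrophage genes, 8 were higher and 1 lower, and of 12 alveolar macrophage genes all 12 were higher. Of all tested genes, 23.7% were higher and 23.8% lower in this comparison. The summed alveolar macrophage list was 26724 to 44414 in WT and 20657 to 27886 in KO inflammatory DCs, 3537 to 4462 in WT lung CD11b DCs and 92839 to 95518 in WT alveolar macrophages. Chi3l3 was higher in inflammatory DCs than in alveolar macrophages, and Retnla and Arg1 were near 0 in WT alveolar macrophages (means of 14.0 and 12.6). These macrophages came from untreated mice. Alveolar macrophages of mice given dust mite extract were not sequenced, and their part in the inflammatory DC values was not tested. Eosinophils also express Ear genes. Of the eosinophil list, Epx was at 0 in all 3 WT and all 3 KO inflammatory DC libraries, and also in spleen CD8a DCs. The summed list was 623.6 to 1029 in WT and 1010 to 1203 in KO inflammatory DCs. It was 55.6 to 303.5 in WT lung CD11b DCs and 6994 to 7335 in WT alveolar macrophages. The eosinophil list shares Siglec5 with the alveolar macrophage list, so its sum is not a measure of eosinophils alone. The part of eosinophils in the Ear2 values was not tested. In these bulk samples fewer cells of a type and less RNA per cell cannot be told apart.

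KO and WT were then compared within each cell type, which addresses what differs when Mtor, the kinase that couples nutrients and growth factors to metabolism, is reduced to the extents given above. In inflammatory DCs Retnla fell and was the only one of the 9 genes called in limma: 0 were higher (background 1.45%; 1, Chi3l1, at an unadjusted p under 0.05, 0 by edgeR and DESeq2) and 1 was lower (background 1.92%). Its 3 KO libraries, 689.5, 599.6 and 157.2, lay below the lowest WT library at 2819.7, a ratio of means of 7.84 (log2 difference -3.20 ± 0.63, adjusted p = 0.00517). The call held in all 16 alternatives, with adjusted p from 0.000368 to 0.0431 and differences from -3.59 to -2.52. All inflammatory DC libraries of both genotypes held Y-linked reads, so the term for them could not change this difference. These values rest on 125 to 4344 Retnla reads per library.

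The other effectors were not called in inflammatory DCs. Chi3l3 differed by -0.41 ± 0.38 (95% interval -1.20 to 0.38, adjusted p = 0.753), Chi3l4 by -0.92 ± 0.55 (adjusted p = 0.514) and Arg1 by -0.53 ± 0.68 (95% interval -1.93 to 0.87, adjusted p = 0.848). KO replicate 3 was the lowest of the 6 libraries for these genes and for Retnla. Ear2 did not overlap between genotypes (-1.28 ± 0.50, adjusted p = 0.211) and was called lower by edgeR (adjusted p = 0.0231), by DESeq2 (adjusted p = 0.00137), with a pseudocount of 8 (adjusted p = 0.0207) and in a fit of these 2 groups alone (adjusted p = 0.0338). Chi3l1 differed by 2.74 ± 1.26 (adjusted p = 0.331). Il4ra (0.08 ± 0.22, 95% interval -0.37 to 0.53), Il13ra1 (0.25 ± 0.15, -0.07 to 0.56) and Stat6 (-0.10 ± 0.14, -0.39 to 0.20) were not called.

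Other genes moved with Retnla between the KO and WT inflammatory DC libraries. Of 12 tested alveolar macrophage genes 5 fell (background 1.92%), among them Fabp4 (845.2 to 142.0), Cidec (341.0 to 36.0), Krt79 (2101 to 170.1) and Krt19 (447.9 to 72.7). Of 6 conventional DC genes 4 fell, Flt3, Zbtb46, Dpp4 and Ccr7, and the cDC2 lectin Cd209a fell from 536.6 to 88.8. The summed conventional DC list was 221739 to 259834 in WT and 212809 to 327575 in KO. That list also holds the MHC class II genes H2-Ab1 and Cd74, and Flt3 and Zbtb46, at the levels given above, added little to its sum. The sum therefore does not follow the genes that fell. The smallest adjusted p among 13 monocyte and macrophage genes was 0.0778 (Lyz2, 165081 to 243604). Their sum, most of it Lyz2, was 224909 to 267239 in WT and 298284 to 359458 in KO, with no overlap. Retnla itself was near 0 in alveolar macrophages of untreated mice, as given above. The part of these cells in the lower Retnla was not tested.

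**Figure D4:**
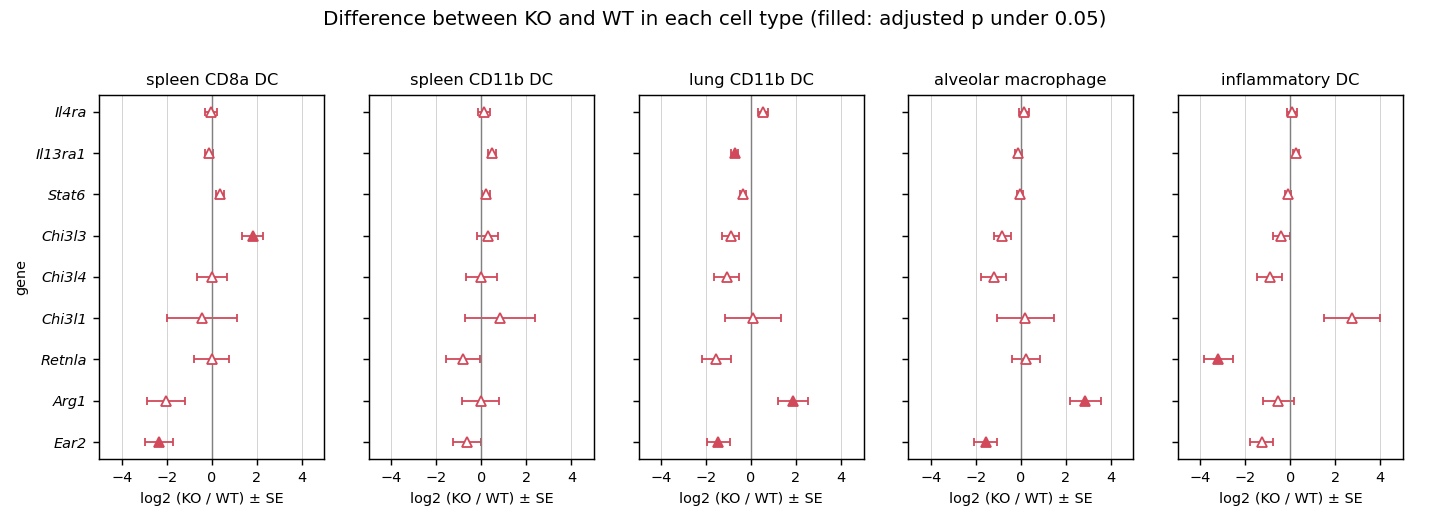
Log2 difference between KO and WT (horizontal axis) ± moderated standard error for each of the 9 genes (vertical axis) in each of the 5 cell types; filled triangles are genes with an adjusted p under 0.05. Retnla lies at -3.20 in inflammatory DCs and at 0.24 in alveolar macrophages, and Arg1 at 2.87 in alveolar macrophages and at -0.53 in inflammatory DCs.

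In alveolar macrophages Arg1 rose and Ear2 fell in KO: 1 gene was higher (background 10.5%) and 1 lower (background 6.39%). Arg1 averaged 12.6 ± 2.6 normalized counts in WT, against 108.6 ± 54.8 in KO (SD over 3 libraries), with no overlap (2.87 ± 0.68, adjusted p = 0.00366), and the call held in all 16 alternatives. Even so, the KO level was far below the 15425.7 ± 7514.2 of WT inflammatory DCs. Ear2 went from 726.3 ± 36.0 to 245.3 ± 10.6 (-1.56 ± 0.50, adjusted p = 0.0345), and the call was lost in 9 of 16 alternatives, among them leaving out any 1 library (adjusted p 0.0746 to 0.0975), a pseudocount of 0.25 (adjusted p = 0.143), no filter (adjusted p = 0.051) and the term for Y-linked reads (adjusted p = 0.167). Chi3l3 (-0.82 ± 0.38, adjusted p = 0.164) and Chi3l4 (-1.20 ± 0.55, adjusted p = 0.153) did not overlap between genotypes. They were called lower with sample weights (adjusted p = 0.00337 and 0.0212) and in a fit of the 2 groups alone (adjusted p = 3.23e-05 and 0.00731). The summed T cell list was 25.4 to 36.5 in WT and 1807 to 2100 in KO alveolar macrophages, most of it Il7r (16.7 to 1804). In the same libraries the summed alveolar macrophage list was 92839 to 95518 in WT and 75511 to 82096 in KO. The summed monocyte and macrophage list was 278819 to 282145 in WT and 214002 to 230761 in KO. The part of these differences in the Arg1, Ear2, Chi3l3 and Chi3l4 values was not tested.

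In lung CD11b DCs 1 gene was higher in KO (background 12.0%) and 2 were lower (background 14.0%). Il13ra1 fell from 4012.3 ± 953.7 to 2410.7 ± 415.9 with no overlap (-0.72 ± 0.15, adjusted p = 0.00113), in all 17 alternatives. Arg1 was higher (1.87 ± 0.68, adjusted p = 0.0438) although the groups overlapped, and the call was lost in 11 of 17 alternatives: edgeR gave 1.04 (adjusted p = 0.213), DESeq2 0.99 (adjusted p = 0.343) and leaving out WT replicate 1, at 14.1, gave 0.90 (adjusted p = 0.317). It was lost also without WT replicate 3, KO replicate 2 or KO replicate 3 (adjusted p 0.105 to 0.144). Ear2 fell (-1.46 ± 0.50, adjusted p = 0.0355), a call lost in 9 of 17 alternatives, among them leaving out any WT library or KO replicate 2 or 3 (adjusted p 0.0527 to 0.1).

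Other members in these cells depended on single libraries. Retnla differed by -1.54 ± 0.63 (adjusted p = 0.074). It was called without KO replicate 1, the library with Y-linked reads (-2.13, adjusted p = 0.0169), by edgeR (adjusted p = 0.0373), with a pseudocount of 8 (adjusted p = 0.0231), with the term for Y-linked reads (adjusted p = 0.0165) and in a fit of these groups alone (adjusted p = 0.0422). Stat6 (-0.37 ± 0.14, adjusted p = 0.0546) was likewise called only without that library (-0.59, adjusted p = 0.000762) and with the term for Y-linked reads, which draws on the same contrast. Chi3l3 differed by -0.90 ± 0.38 (adjusted p = 0.0859) but passed in 4 alternatives: DESeq2 (adjusted p = 0.0238), weighted samples (adjusted p = 0.0363), leaving out WT replicate 3 (-1.47, adjusted p = 0.00297) and leaving out KO replicate 3 (-1.24, adjusted p = 0.0312). Il4ra differed by 0.51 ± 0.22 (adjusted p = 0.0859) but passed with DESeq2 (adjusted p = 0.0373), the term for fewer detected genes (0.71, adjusted p = 0.0118), WT replicate 1 left out (0.67, adjusted p = 0.0481) and KO replicate 2 left out (0.88, adjusted p = 0.0011). In the same comparison 4 of 6 conventional DC genes fell (background 14.0%), among them Flt3 (2654 to 628.2), as did Mgl2 (23821 to 5859) and Cd209a (24194 to 4760). Of 13 monocyte and macrophage genes 4 rose (background 12.0%), among them Ly6c2 (96.3 to 3209), Fcgr1 (242.6 to 1600) and Mertk (126.7 to 492.6), and 2 fell (background 14.0%). The summed alveolar macrophage list was 3537 to 4462 in WT and 6165 to 8791 in KO. Their part in these results was not tested.

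Spleen cells held little of the effectors. In CD8a DCs Chi3l3 rose from 10.3 and 7.1 to 25.1 and 42.0 in KO (1.81 ± 0.47, adjusted p = 0.0212; background 1.50% higher) and Ear2 fell from 12.0 and 14.2 to 6.5 and 0 (-2.36 ± 0.62, adjusted p = 0.0237; background 3.63% lower). Both calls were lost with edgeR (adjusted p = 0.276 and 0.25) and with a pseudocount of 8 (adjusted p = 0.105 and 0.166), and they rest on 0 to 35 reads per library. Chi3l3 was lost also without WT replicate 2 or KO replicate 2 (adjusted p = 0.15 and 0.254), and Ear2 without WT replicate 1, WT replicate 2 or KO replicate 2 (adjusted p 0.0738 to 0.567). In CD11b DCs limma called 0 of the 9 genes (background 1.28% higher and 0.233% lower), edgeR and DESeq2 also 0, and 1, Il13ra1, was higher at an unadjusted p under 0.05.

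Whether the KO change differed between cell types was tested as a difference of differences. Between inflammatory and lung CD11b DCs 1 gene was called higher (background 6.08%) and 0 lower (background 6.95%; 1, Arg1, at an unadjusted p under 0.05, 0 by edgeR and DESeq2). This was Il13ra1, whose change in inflammatory DCs minus that in lung CD11b DCs was 0.97 ± 0.21 (adjusted p = 0.00394), in all 23 alternatives. Retnla (-1.66 ± 0.89, adjusted p = 0.238) and Arg1 (-2.40 ± 0.96, adjusted p = 0.102) were not called, so the Retnla fall is not shown to differ from its change in lung CD11b DCs. Arg1 was called without WT lung CD11b DC replicate 2 (-3.55, adjusted p = 0.0029). Between inflammatory DCs and alveolar macrophages 0 genes were called higher (background 2.34%; also 0 at an unadjusted p under 0.05, by edgeR and by DESeq2) and 2 lower (background 5.59%), Retnla (-3.44 ± 0.89, adjusted p = 0.0162) and Arg1 (-3.40 ± 0.96, adjusted p = 0.0272). The Retnla call was lost with the term for Y-linked reads (-1.67, adjusted p = 0.467) and without WT or KO alveolar macrophage replicate 2 or KO inflammatory DC replicate 3 (adjusted p 0.0558 to 0.0606). The Arg1 call was lost without WT or KO alveolar macrophage replicate 2 or 3, WT inflammatory DC replicate 2 or KO inflammatory DC replicate 3 (adjusted p 0.05 to 0.0904). Chi3l3 was not called there (0.41 ± 0.54, 95% interval -0.71 to 1.52). In alveolar macrophages Retnla rested on 5 to 32 reads per library, and Arg1 in WT on 9 to 13. A fall of either gene in those cells could therefore hardly be seen.

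The other genes listed as induced by interleukin 4 or interleukin 13, a list of 34, were mostly higher in inflammatory DCs. Against WT lung CD11b DCs 24 of 34 were higher and 4 lower (backgrounds 23.7% and 23.8%; median log2 difference 2.06, beside -0.01 for all tested genes). In KO 22 were higher and 7 lower (backgrounds 19.4% and 17.7%; median 1.45, beside 0.03). The pattern-recognition receptor Clec7a was at 41869 against 4905 in WT, the proton pump subunit Atp6v0d2 at 16870 against 194.4 and the elastase Mmp12 at 31639 against 3797. Ccl22, a chemokine of mature DCs, was lower, at 457 against 7211. Against WT alveolar macrophages 23 of 34 were higher (background 20.1%) and 3 lower (14.7%), among them Mmp12 (31639 against 111.6) and the chemokine Ccl8 (8903 against 3.65). The list also shares genes with the marker lists, among them Mgl2, Clec10a and Irf4 with that of cDC2 and Pparg with that of alveolar macrophages. Since markers of several cell types differ in the same comparisons, as given above, the list's counts describe whole samples.

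The share of all genes called differed widely between the KO comparisons, so the list's counts are given with it. Between KO and WT inflammatory DCs 2 of the 34 rose (background 1.45%), Mmp12 (31639 to 77299; 1.29 ± 0.17, adjusted p = 0.000228) and Cd200r1 (2250 to 3417), and 4 fell (1.92%), among them the scavenger receptor Cd163 (80.8 to 18.7) and the lectin Mgl2 (2295 to 1045). The other 28 were not called. In alveolar macrophages 14 rose (10.5%) and 4 fell (6.39%), with Mmp12 going from 111.6 to 9906 and Igf1 from 177.4 to 813.2. In lung CD11b DCs 13 rose (12.0%), among them Clec7a (4905 to 23806), and 5 fell (14.0%). In spleen CD8a DCs 2 rose (1.50%) and 12 fell (3.63%), among them the mannose receptor Mrc1 (1378 to 69.3). In the same comparison 9 of 13 monocyte and macrophage genes fell, among them Csf1r (4636 to 787.0) and C1qb (3275 to 164.5), and their sum was 18712 to 26256 in WT and 7273 to 7787 in KO; their part in the list's falls was not tested. In spleen CD11b DCs 2 rose (1.28%) and 32 were not called.

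**Figure D5:**
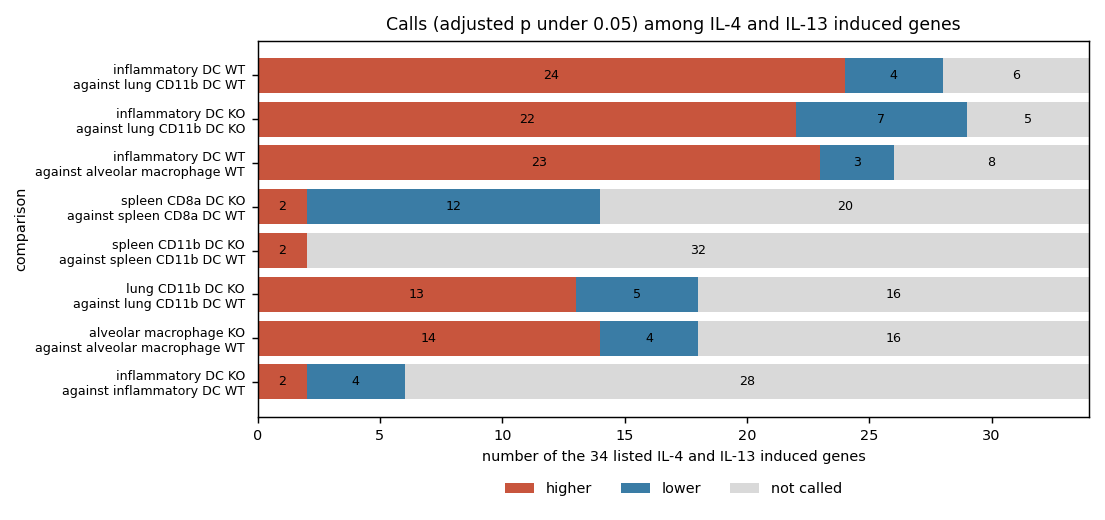
Number of the 34 listed IL-4 and IL-13 induced genes (horizontal axis) called higher, called lower or not called at an adjusted p under 0.05 in each comparison (vertical axis). In the KO comparisons 14 rose in alveolar macrophages, where 10.5% of all tested genes did, and 2 in inflammatory DCs, where 1.45% did.

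Of 15 tested genes of receptor signalling beside the members, 1 was higher and 7 lower in WT inflammatory than in WT lung CD11b DCs (backgrounds 23.7% and 23.8%). The phosphatase Ptpn1 was higher (4261 against 2588) and the inhibitor Socs3 lower (7814 against 15333). In KO inflammatory DCs 1 of the 15 rose (background 1.45%), the common gamma chain Il2rg (3719 to 5302; 0.51 ± 0.12, adjusted p = 0.0204), and 14 were not called. In lung CD11b DCs (backgrounds 12.0% and 14.0%) and in alveolar macrophages (10.5% and 6.39%) 2 rose and 5 fell, and the falls included Jak1 in lung CD11b DCs (3915 to 3232) and Stat3 in alveolar macrophages (3774 to 2808).

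Among 6 tested type 2 cytokines and alarmin receptors, the interleukin 33 receptor Il1rl1 was lower in WT inflammatory than in WT lung CD11b DCs (28.8 against 1446; -5.57 ± 0.52, adjusted p = 8.3e-09), and Il7r was higher (1420 against 549.8). Il1rl1 also fell in KO, in lung CD11b DCs (1446 to 246.5) and in inflammatory DCs (28.8 to 7.63).

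The genes that neighbour the effectors in function had mixed courses. Of 11 tested genes of arginine and polyamine metabolism, 8 were higher and 2 lower in WT inflammatory than in WT lung CD11b DCs (backgrounds 23.7% and 23.8%), and Slc7a2, an arginine transporter, was at 13238 against 99.5. Arg2, the mitochondrial arginase, rose in KO in lung CD11b DCs (9.92 to 137.7) and in alveolar macrophages (26.7 to 212.7), as Arg1 did by limma. Nos2, which competes for arginine, was at 292.9 in WT inflammatory DCs and listed at 0 in WT lung CD11b DCs, and at 691.0 and 72.4 in KO. Of 4 tested Ear family genes all 4 were higher in WT inflammatory than in WT lung CD11b DCs, with Ear11 at 6057 against 20.9. Ear1, the near copy of Ear2, fell in KO in lung CD11b DCs (44.0 to 5.41; -3.25 ± 0.74, adjusted p = 0.00238) and in alveolar macrophages (6543 to 1367; -2.26 ± 0.74, adjusted p = 0.0386), where Ear2 also fell. Chid1, a chitinase domain protein, was 438.1 in WT inflammatory and 222.8 in WT lung CD11b DCs, and Retnlg, a resistin family gene of neutrophils, 83.2 and 6.54; both were called higher.

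Over the 10 group means of the log2 value, which share libraries and are few, genes among those whose pattern was most like each member were found by Pearson's r. For Arg1 they were Oit3 (0.985), Ccl8 (0.984) and Gstm2 (0.975), and for Retnla Dnajb14 (0.967), Fcgr2b (0.964) and Pf4 (0.961). For Chi3l3 they were 4933417E11Rik (0.990), Kank3 (0.988) and Ncstn (0.987), for Chi3l4 Gpr15 (0.982) and Ear5 (0.980), and for Chi3l1 Itpkc (0.955) and Sftpd (0.945). For Ear2 they were Acap3 (0.991), Fbxl15 (0.974) and Gm889 (0.969). For Il4ra they were Ctss (0.996), Mfsd1 (0.990) and Ostm1 (0.987), for Il13ra1 Fosl2 (0.970), Smpdl3b (0.968) and Zc3h12a (0.968), and for Stat6 Dctn1 (0.964) and Myh9 (0.954). Among the members themselves r was highest for Chi3l3 with Il4ra (0.950) and with Chi3l4 (0.925), and lowest for Arg1 with Stat6 (0.137).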

How the data were processed

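RNA-seq libraries of 26 samples in 10 groups were analysed from 1 table of gene-level signal deposited by the authors, in counts divided by a size factor per library. Per the submitters' processing notes, STAR 2.3.1s, mm10, HTSeq and DESeq2 1.10.1 were used; the HTSeq version, annotation and strand setting are not given in the sources used here. Whole reads were recovered from the deposited signal values for 100% of values within 1e-06 reads, with size factors from 0.754 to 1.48 and 7.37 to 14.1 M reads per library.

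Log2(normalized count + 1) was fitted with limma 3.58.1 in R 4.3.3, with a mean per group over all 26 libraries and a mean-variance trend, for genes at 10 or more in at least 2 libraries. P-values were adjusted by Benjamini-Hochberg over 13311 genes, and a gene was called at an adjusted p under 0.05. Alternatives were pseudocounts of 0.25 and 8, no filter, a filter at 50, sample weights, a term for Y-linked reads (summed normalized count above 100), TMM scaling, edgeR 4.0.16 and DESeq2 1.42.0 on the recovered reads, a fit of the compared groups alone and leaving out each library. A term for the 3 libraries with under 13200 detected genes was added after seeing the data. The scripts were tested on simulated data.

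The 9 genes and all lists were chosen with earlier results of these data known. Of each function or marker list the text names at most the 4 genes with the smallest adjusted p in a comparison, and for each of the 9 genes the 3 tested genes with the highest Pearson r over the group means, some of which are not reported here. Libraries were grouped by their labels, and no library was left out of the main result.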

Additional observations from a re-analysis of the deposited data

Results flagged for a closer look

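The change between KO and WT differed between cell types for 3 results, by a test of the difference itself in limma with Benjamini-Hochberg adjustment. For Il13ra1 the change in inflammatory DCs minus that in lung CD11b DCs was 0.97 ± 0.21 on the log2 scale (adjusted p = 0.00394). For Retnla the change in inflammatory DCs minus that in alveolar macrophages was -3.44 ± 0.89 (adjusted p = 0.0162), and for Arg1 it was -3.40 ± 0.96 (adjusted p = 0.0272). The Il13ra1 call held in all 23 alternatives. The Retnla call was lost in 4 of 22 (with the term for Y-linked reads -1.67, adjusted p = 0.467), and the Arg1 call in 6 of 22 (adjusted p 0.05 to 0.0904). KO Retnla was below WT in all 3 inflammatory DC libraries, and KO Arg1 above WT in all 3 alveolar macrophage libraries. Both differences rest on few reads in alveolar macrophages, 5 to 32 per library for Retnla and 9 to 13 in WT for Arg1.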

How the results depend on the processing

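Of 42 called results of the 9 genes, 23 kept their call in every alternative run. Over called results, 627 values kept direction and call and 82 lost the call; over results not called, 380 stayed so, 37 gained a call and 10 changed sign. The term for Y-linked reads gave 3 called genes for KO inflammatory against KO lung CD11b DCs, 0 for KO against WT in spleen CD8a DCs, 5 in lung CD11b DCs, 2 for the difference in KO change between inflammatory and lung CD11b DCs and 1 for that between inflammatory DCs and alveolar macrophages. For KO against WT in spleen CD8a DCs the count was 0 with a pseudocount of 8, edgeR or the fit of these groups alone, 1 with sample weights or DESeq2, and 0 to 2 leaving out a library. In lung CD11b DCs it was 1 with a pseudocount of 0.25 or no filter, and 2 to 5 leaving out a library. In alveolar macrophages it was 1 with a pseudocount of 0.25 or no filter, 4 with sample weights or the fit of these groups alone, and 1 leaving out any library. In inflammatory DCs it was 2 with a pseudocount of 8, edgeR, DESeq2 or the fit of these groups alone. Leaving out a library gave 1 to 2 called genes for the difference between inflammatory and lung CD11b DCs and 0 to 2 for that between inflammatory DCs and alveolar macrophages.

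Signs changed only where no call was made. For KO inflammatory against KO lung CD11b DCs, Retnla was -0.38 with the term for Y-linked reads and -0.054 with that for fewer detected genes, and Stat6 was -0.37 and -0.16. Leaving out a library gave -0.083 to 0.28 for Stat6 and -0.17 to 0.10 for Il13ra1 there, and -0.070 to 0.25 for Il4ra between KO and WT inflammatory DCs. The cause was not tested. The filter at 50 left Chi3l1 untested. No paired analysis was possible because the labels give no replicate numbers shared between groups. Counts near 0 limit Chi3l1, Chi3l4 outside 2 lung cell types, and all effectors in spleen. They also limit Retnla in alveolar macrophages and Arg1 in WT alveolar macrophages.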
